A study of Homo sapiens with 12 samples.

Results

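S100 genes encode small calcium-binding proteins with a pair of EF-hand motifs. The 10 members described here, S100A2, S100A4, S100A6, S100A7, S100A8, S100A9, S100A10, S100A11, S100A14 and S100A16, were taken by their gene symbols from the deposited tables, which list 62082 Ensembl gene IDs, 26022 of them above 0 in at least 1 group. Most S100 proteins work as dimers that bind target proteins when calcium rises, and several, S100A8 and S100A9 among them, are also released from cells and bind surface receptors. In stratified and mammary epithelia, S100A2 and S100A14 are known from epithelial cells, S100A7 and the S100A8 and S100A9 pair from stressed or inflamed squamous epithelium, and S100A4 from motile and mesenchymal cells. Most of the genes lie next to each other in the epidermal differentiation complex on chromosome 1.

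The cells were MCF10A, an established human mammary epithelial line that does not form tumours, grown without treatment and sequenced in 4 groups of 3 libraries. One pair of groups had intact wild-type p53 and carried either the empty pBabepuro vector or stably expressed H-RasV12, an activated form of H-Ras delivered by retrovirus. The other pair carried a targeted deletion of p53 at exon 2, again with the vector or with H-RasV12. Each H-Ras line had as its control the vector line made at the same time, so p53 status and the pair of lines cannot be told apart, and neither can H-Ras and any other difference between the lines of a pair. Nothing says that the 3 libraries of a group came from separate cultures, so p-values measure only the spread between these libraries.

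Levels are normalized counts, that is, gene reads divided by a size factor set within each table, and levels are not compared between genes. The libraries held 7846958 to 10088349 reads. The tables hold group means only, and the value of each library was solved from the printed mean as whole reads. The letters A, B and C name the libraries of a group in falling order of size factor, since the columns give no replicate number. A gene was called when its Benjamini-Hochberg adjusted p from limma, two-sided and over all genes tested, was under 0.05. HRAS lay between 717 and 946 normalized counts in the vector libraries and between 14810 and 18454 in the H-Ras libraries of the p53 wild-type lines, and between 793 and 878 and between 16475 and 18592 in the p53-deleted lines. Reads of introduced and endogenous HRAS cannot be separated. Of 10 markers of mammary and basal epithelium, 10 of 10 were above 0 in every group. With H-Ras, 10 of 10 were called lower in the p53 wild-type lines, beside 12.7% of all genes tested. In the p53-deleted lines 7 of 9 tested were, beside 28.4%. Some, TP63 among them, were tested through their vector libraries alone, where only a fall could be found. CDH1 changed by -8.07 and -6.27 and the basal factor TP63 by -8.70 and -8.49 on the log2 scale. KRT8 (-0.07, limma adjusted p = 0.49) and ITGB4 (-0.33, limma adjusted p = 0.071) were not called in the p53-deleted lines.

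The direction of change differed between members. In the p53 wild-type lines S100A2, S100A7 and S100A14 fell with H-Ras and S100A4, S100A8 and S100A10 rose, so that 6 of 10 members were called against 25.6% of all 12473 genes tested, 3 of them higher against 13% and 3 lower against 12.7%. S100A6, S100A9, S100A11 and S100A16 were not called. In the p53-deleted lines 9 members were tested. S100A4, S100A6, S100A8 and S100A16 rose, S100A7, S100A10, S100A11 and S100A14 fell, and S100A9 was not called, so that 8 of 9 were called against 56.1% of 12785 genes, 4 of them higher against 27.7% and 4 lower against 28.4%. The response itself differed between the backgrounds for 4 of 9 members, against 17.2% of 13268 genes: it was higher in the p53-deleted lines for S100A4 and S100A6, against 9.28%, and lower for S100A10 and S100A11, against 7.94%. The median log2 fold change of the members was 0.37 in the p53 wild-type lines, beside -0.02 over all genes, and -0.002 in the p53-deleted lines, beside 0.01 over all genes. S100A2 was left out of the p53-deleted fit because its vector mean has several whole-read solutions. S100A7 is in the H-Ras counts of both backgrounds although it was tested through its vector libraries alone, where only a fall could be found. The libraries of vector and H-Ras did not overlap for 6 of 10 members in the p53 wild-type lines, beside 42.5% of all genes tested, and for 7 of 9 in the p53-deleted lines, beside 63.2%.

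**Figure D1:**
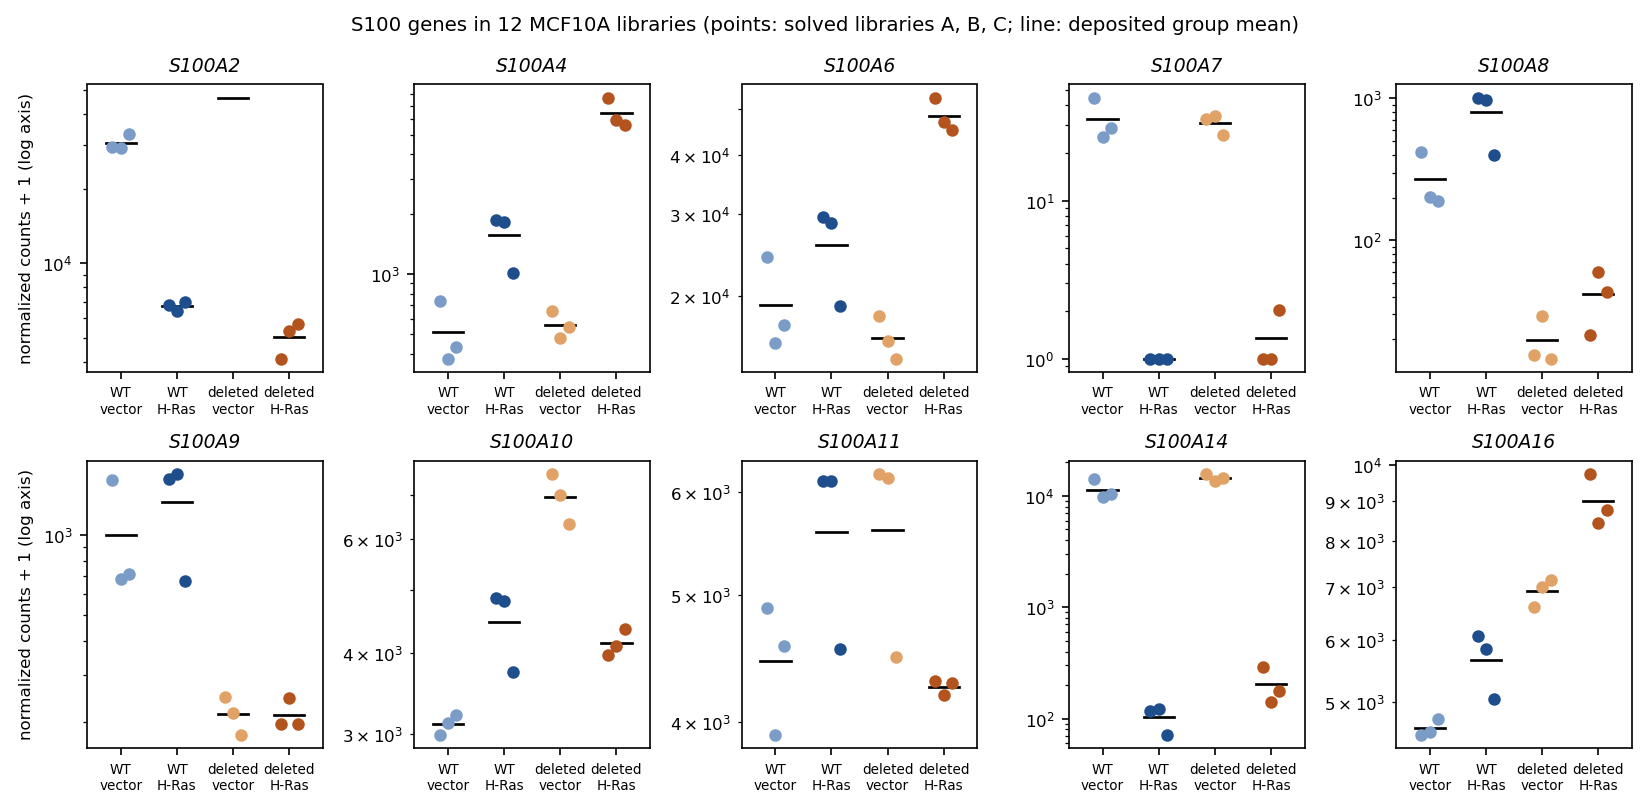
Normalized counts plus 1, on a log axis, of each S100 member in the 4 groups, with WT for p53 wild-type. Points are the 3 solved libraries (A, B and C from left to right) and lines are the deposited group means. S100A14 drops by about 2 orders of magnitude with H-Ras in both backgrounds (group means 11410 to 103 and 14561 to 202), and S100A10 is higher with H-Ras in the p53 wild-type lines and lower in the p53-deleted lines.

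S100A14, a member known from epithelial cells, had the lowest ratio of H-Ras to vector among the members read in every library. The p53 wild-type vector libraries A, B and C held 14121, 9726 and 10383 normalized counts, and the H-Ras libraries held 116, 121 and 69.8. The p53-deleted vector libraries held 15724, 13522 and 14436, and the H-Ras libraries held 290, 140 and 174. Every vector library stood far above every H-Ras library in both backgrounds. The ratio of the vector mean to the H-Ras mean was 111 in the p53 wild-type lines, with a log2 fold change of -6.81 ± 0.24 (SE, limma adjusted p = 5.9e-06), and 72.2 in the p53-deleted lines, with -6.23 ± 0.20 (limma adjusted p = 1.4e-09). The difference between both responses was 0.57 ± 0.36 on the log2 scale and was not called (limma adjusted p = 0.30). In bulk RNA, fewer cells of a type and less RNA per cell cannot be told apart.

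S100A2, known from basal epithelial cells and as a gene that p53 and p63 can activate, also fell. The p53 wild-type vector libraries held 29584, 29183 and 33304 normalized counts, against 6751, 6407 and 6994 with H-Ras. The groups did not overlap, and the fall was 4.57-fold between the means, with a log2 fold change of -2.19 ± 0.10 (limma adjusted p = 1.7e-05). In the p53-deleted lines the authors' deposited mean of the vector line was 46810, and the H-Ras libraries held 4109, 5307 and 5678, so the means differed 9.30-fold. That vector mean fits 4 sets of whole reads within the bounds used, each of which was tried after seeing the data. Further sets outside those bounds, with a wider spread between libraries, were not tried. The 4 sets within the bounds gave log2 fold changes of -3.22 to -3.16, with limma adjusted p between 1.0e-08 and 7.5e-07. The fall was larger in the p53-deleted lines by 0.97 to 1.03 on the log2 scale, and that difference was called under 3 of the 4 solutions (limma adjusted p = 0.0030 to 0.052).

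S100A7, or psoriasin, is induced in squamous epithelium under inflammation. It was a low gene here, with 43.8, 24.2 and 27.95 normalized counts in the p53 wild-type vector libraries and 31.9, 33.2 and 25.2 in the p53-deleted ones. Among the H-Ras libraries, 1 read was found in p53-deleted library C and none in the other 5. In the p53 wild-type lines, 98 reads over the vector libraries stood against 0, which is at least 33.7-fold lower at a floor of 3 reads over the group. In the p53-deleted lines 91 reads stood against 1, a vector to H-Ras ratio of 91.5 with an exact 95% counting interval of 16.02 to 3655. Floor and interval cover counting error only. Both falls were called (limma adjusted p = 1.2e-04 and 2.8e-06). A gene was tested where 3 or more libraries reached 10 normalized counts. S100A7 did so through its vector libraries alone, so only a fall could be found and the calls add no support. S100A7 lies close to S100A7A, a near copy with 5 reads or fewer per group, so reads may be split between them.

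S100A4, which binds non-muscle myosin and is also called metastasin or fibroblast-specific protein, rose in both backgrounds. The p53 wild-type vector libraries held 730, 376 and 429 normalized counts and the H-Ras libraries 1880, 1822 and 1020. The p53-deleted vector libraries held 650, 479 and 541 and the H-Ras libraries 7714, 5960 and 5639. The groups did not overlap in either background, and the p53-deleted H-Ras libraries were the highest of all. The rise was 3.08-fold in the p53 wild-type lines (log2 1.63 ± 0.31, limma adjusted p = 0.0086) and 11.6-fold in the p53-deleted lines (3.53 ± 0.13, limma adjusted p = 4.4e-09). The rise was larger in the p53-deleted lines by 1.90 ± 0.37 on the log2 scale (limma adjusted p = 0.0047). Of 8 fibroblast markers, COL1A2 and COL3A1 were at 0 in every group, and LUM was also at 0 in both p53-deleted groups. Their summed level was 206 to 310 in the p53 wild-type vector libraries and 2317 to 3608 with H-Ras, and 97.6 to 139 and 352 to 697 in the p53-deleted lines, and with H-Ras most of it was DCN. Their part in the S100A4 result was not tested.

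S100A6, or calcyclin, whose partner is the calcyclin-binding protein CACYBP, was called in the p53-deleted lines and not in the p53 wild-type lines. The p53-deleted vector libraries held 18174, 16009 and 14706 normalized counts and the H-Ras libraries 53000, 47005 and 45112, with no overlap. The rise was 2.97-fold (log2 1.57 ± 0.11, limma adjusted p = 6.1e-07). In the p53 wild-type lines the vector libraries held 24200, 15893 and 17323 and the H-Ras libraries 29480, 28636 and 19023, so vector library A lay above H-Ras library C. The log2 fold change there was 0.42 ± 0.22 (limma adjusted p = 0.20), and without H-Ras library C it was 0.63 (limma adjusted p = 0.038). The difference between both responses was 1.15 ± 0.26 on the log2 scale (limma adjusted p = 0.011). Means this high are solved less surely than lower ones, and the means of both p53-deleted groups had a second solution outside the bounds used.

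S100A10 and S100A11 are the members best known for binding annexins, S100A10 with annexin A2 at the plasma membrane, where the pair can hold plasminogen, and S100A11 with annexin A1. For S100A10 the p53 wild-type vector libraries held 2985, 3112 and 3205 normalized counts and the H-Ras libraries 4850, 4813 and 3740. The p53-deleted vector libraries held 7541, 7006 and 6321 and the H-Ras libraries 3966, 4093 and 4350. All H-Ras libraries were above the vector libraries in the p53 wild-type lines and below them in the p53-deleted lines. S100A10 rose 1.44-fold in the former (log2 0.52 ± 0.12, limma adjusted p = 0.021) and fell 1.68-fold in the latter (-0.75 ± 0.09, limma adjusted p = 3.0e-05). The test of the difference between both responses gave -1.26 ± 0.15 on the log2 scale (limma adjusted p = 2.0e-04). The rise in the p53 wild-type lines lost its call without vector library B or C or without H-Ras library A or B (limma adjusted p = 0.077, 0.060, 0.094 and 0.097), while the sign held.

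S100A11 held 4883, 3905 and 4569 normalized counts in the p53 wild-type vector libraries and 6113, 6109 and 4546 with H-Ras. It held 6188, 6141 and 4483 in the p53-deleted vector libraries and 4296, 4189 and 4278 with H-Ras. The groups overlapped in the p53 wild-type lines, and in the p53-deleted lines vector library C lay just above the H-Ras libraries. The log2 fold change was 0.32 ± 0.15 in the p53 wild-type lines (limma adjusted p = 0.16), where it was 0.46 without H-Ras library C (limma adjusted p = 0.024), and -0.38 ± 0.12 in the p53-deleted lines (limma adjusted p = 0.017). The p53-deleted call was lost without vector library A or B or H-Ras library B (limma adjusted p = 0.075, 0.051 and 0.053) and with upper-quartile scaling (0.061). The difference between both responses was -0.70 ± 0.21 on the log2 scale (limma adjusted p = 0.035). It was no longer called in 9 of the 12 fits that leave out 1 library (limma adjusted p = 0.050 to 0.087), the exceptions being those without p53 wild-type vector A, H-Ras C or p53-deleted vector C. The call was also lost with no filter and with upper-quartile scaling.

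S100A16, a member read in many tissues, had small differences. It held 4536, 4584 and 4761 normalized counts in the p53 wild-type vector libraries and 6065, 5844 and 5045 with H-Ras, and 6593, 6991 and 7144 against 9738, 8447 and 8778 in the p53-deleted lines. The H-Ras libraries were above the vector libraries in both backgrounds. The log2 fold change was 0.28 ± 0.10 in the p53 wild-type lines, which was not called (limma adjusted p = 0.081), and 0.38 ± 0.09 in the p53-deleted lines, which was (limma adjusted p = 0.0035). The p53 wild-type value was called without H-Ras library C (0.36, limma adjusted p = 0.023) and in the fit of all 12 libraries (limma adjusted p = 0.029).

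**Figure D2:**
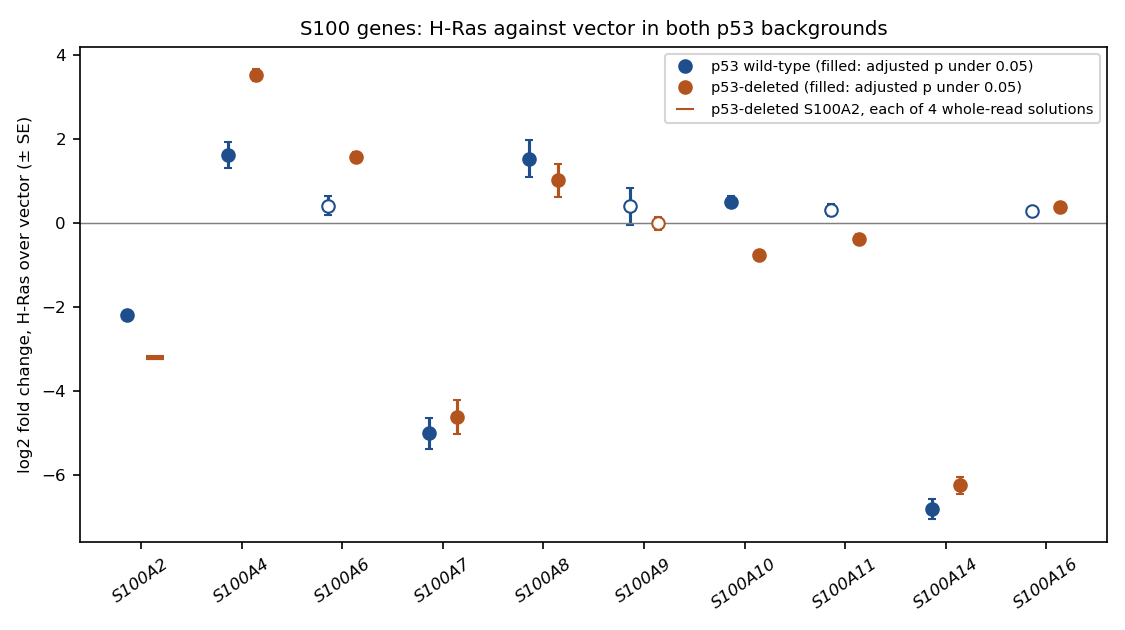
Log2 fold change of H-Ras over vector for the 10 S100 members, with bars for SE, in the p53 wild-type lines (blue) and the p53-deleted lines (orange). Filled points have a limma adjusted p under 0.05, and dashes show S100A2 under each of 4 whole-read solutions within the bounds used. S100A14 lies at -6.81 and -6.23, and S100A10 lies on opposite sides of 0 at 0.52 and -0.75.

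S100A8 and S100A9 form calprotectin, a heterodimer abundant in neutrophils and induced in stressed keratinocytes. For S100A8 the p53 wild-type vector libraries A, B and C held 420, 200 and 189 normalized counts and the H-Ras libraries 1011, 976 and 396, while the p53-deleted libraries held 14.5, 28.3 and 13.6 against 20.5, 58.8 and 42.3. For S100A9 the p53 wild-type libraries held 1598, 682 and 716 against 1617, 1686 and 670, and the p53-deleted libraries 246, 214 and 177 against 195, 245 and 195. Vector and H-Ras libraries overlapped for both genes in both backgrounds, and in the p53 wild-type lines vector library A was high and H-Ras library C low for both. S100A8 was 2.95-fold higher with H-Ras in the p53 wild-type lines (log2 1.54 ± 0.44, limma adjusted p = 0.039) and 2.15-fold higher in the p53-deleted lines (1.02 ± 0.39, limma adjusted p = 0.042). The p53 wild-type call was lost without vector library B or C or H-Ras library A or B (limma adjusted p = 0.13 to 0.14). The p53-deleted call was lost without vector library A or C or H-Ras library B or C (limma adjusted p = 0.11 to 0.18), with voom (0.057) and with all 12 libraries in the fit (0.087). S100A9 was not called in either background, at 0.41 ± 0.44 (limma adjusted p = 0.53) and -0.002 ± 0.147 (0.99). When library A of the vector and library C of H-Ras were both left out, S100A9 was 1.24 higher with H-Ras on the log2 scale in those lines and S100A8 was 2.35 higher. These libraries were chosen with the data in view and are the high vector and the low H-Ras library for both genes, so the larger differences without them are a description and carry no test.

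The ratio of S100A8 to S100A9 reads, chosen after the values were seen, does not depend on how a library is scaled. It was 0.26, 0.29 and 0.26 in the p53 wild-type vector libraries and 0.63, 0.58 and 0.59 with H-Ras. The groups did not overlap, and each held together although the levels of both genes varied more than 2-fold within it. The mean was 0.273 ± 0.018 (SD, n = 3) against 0.598 ± 0.024 (SD, n = 3), with a two-sided exact permutation p = 0.10, the smallest that 3 against 3 libraries allow. In the p53-deleted lines the ratio was 0.059, 0.13 and 0.077 in the vector libraries and 0.11, 0.24 and 0.22 with H-Ras, which overlapped (two-sided exact permutation p = 0.20). Of 10 leukocyte markers, PTPRC, CSF3R and FCGR3B were at 0 in all 4 groups. The summed level of the list was 238 to 818 in the p53 wild-type vector libraries, 145 to 531 with H-Ras, 53.7 to 107 in the p53-deleted vector libraries and 193 to 351 with H-Ras, and nearly all of it was CD14. CD14 held 802, 245 and 237 normalized counts in the p53 wild-type vector libraries and 531, 470 and 142 with H-Ras, so library A was high and library C low there as for S100A8 and S100A9. Its part in these results was not tested.

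**Figure D3:**
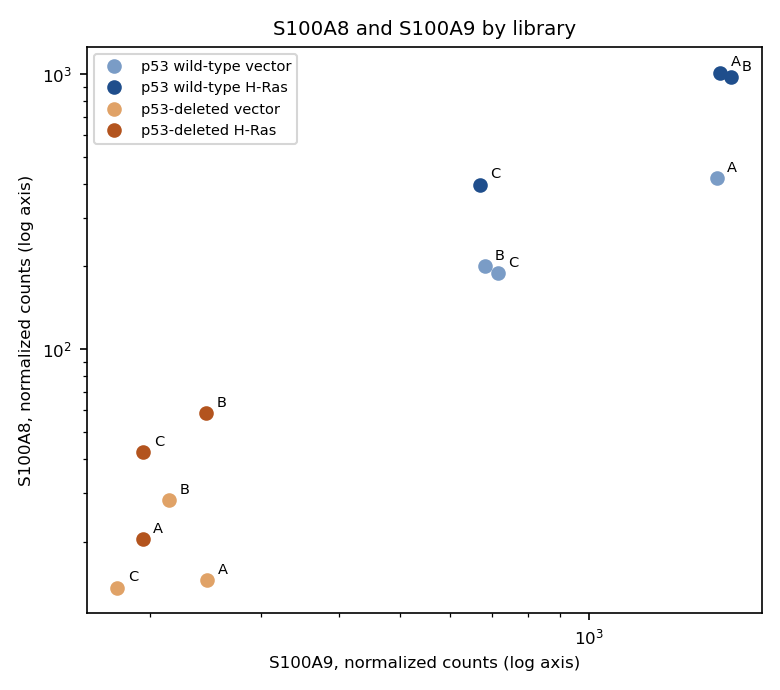
Normalized counts of S100A8 against S100A9 in the 12 libraries, both on log axes, with the library letter beside each point. The p53 wild-type H-Ras libraries lie above the vector libraries at a given S100A9 level, and all p53-deleted libraries lie below 60 normalized counts of S100A8 and below 250 of S100A9.

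The p53-deleted lines were then set against the p53 wild-type lines on reads brought to 1 scale over the 12 libraries, since the deposited tables were normalized separately. Between the vector lines, 4 of 9 members were called against 33% of 13243 genes, 2 of them higher in the p53-deleted line against 16.2% and 2 lower against 16.8%. Between the H-Ras lines 7 of 9 were called against 37.3%, 4 of them higher against 19.1% and 3 lower against 18.2%. S100A7 is among the 9 although it had too few reads in the H-Ras libraries for a difference to be found. S100A8 and S100A9 were lower in the p53-deleted lines in both comparisons. On the common scale S100A8 was at 198 to 443 in the p53 wild-type vector libraries and at 12.8 to 26.7 in the p53-deleted ones, a log2 difference of -3.90 ± 0.46 (limma adjusted p = 3.8e-05). Between the H-Ras lines the difference was -4.42 ± 0.46 (limma adjusted p = 1.1e-05). S100A9 differed by -2.28 ± 0.36 between the vector lines (limma adjusted p = 3.4e-04) and by -2.69 ± 0.36 between the H-Ras lines (limma adjusted p = 8.1e-05). No p53 wild-type library overlapped a p53-deleted one for either gene. For both, the H-Ras and vector groups of a background were neighbours in the order of levels and overlapped.

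S100A10 and S100A16 were higher in the p53-deleted vector line. S100A10 differed by 1.00 ± 0.11 on the log2 scale between the vector lines (limma adjusted p = 2.1e-05), and its order ran from the p53 wild-type vector (3147 to 3367 on the common scale) through p53-deleted H-Ras and p53 wild-type H-Ras, which overlapped, to the p53-deleted vector (5956 to 7098). Between the H-Ras lines it differed by -0.26 ± 0.11, which was not called (limma adjusted p = 0.084). Without p53 wild-type H-Ras library C that difference was -0.39 and was called (limma adjusted p = 0.0061). S100A16 was higher in the p53-deleted lines by 0.42 ± 0.09 between the vector lines (limma adjusted p = 0.0040) and by 0.51 ± 0.09 between the H-Ras lines (limma adjusted p = 8.7e-04). S100A4 was not called between the vector lines (0.01 ± 0.26, limma adjusted p = 0.98) and higher in the p53-deleted H-Ras line by 1.91 ± 0.26 (limma adjusted p = 1.1e-04), and S100A6 was higher there by 0.78 ± 0.19 (limma adjusted p = 0.0058).

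S100A11 was lower in the p53-deleted H-Ras line by 0.54 on the log2 scale (-0.54 ± 0.15, limma adjusted p = 0.012, or 0.051 without p53 wild-type H-Ras library B). S100A14 was higher there by 0.79 ± 0.26 (limma adjusted p = 0.030), a call lost with voom (0.056), without p53 wild-type H-Ras library C (0.10), without both that library and p53 wild-type vector library A (0.053), and without p53-deleted H-Ras library A or C (0.14 and 0.051). S100A7 was not called between the vector lines or between the H-Ras lines (limma adjusted p = 0.71 and 0.51). The H-Ras libraries held 1 read of S100A7, in p53-deleted library C, and none elsewhere. With so few reads, a difference between the H-Ras lines could not be found. S100A2 differed by 0.38 to 0.44 between the vector lines over its 4 solutions within the bounds used (limma adjusted p = 0.021 to 0.22). Between the H-Ras lines it differed by -0.59 (limma adjusted p = 0.0038 to 0.055), so its calls turn on the solution taken.

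**Figure D4:**
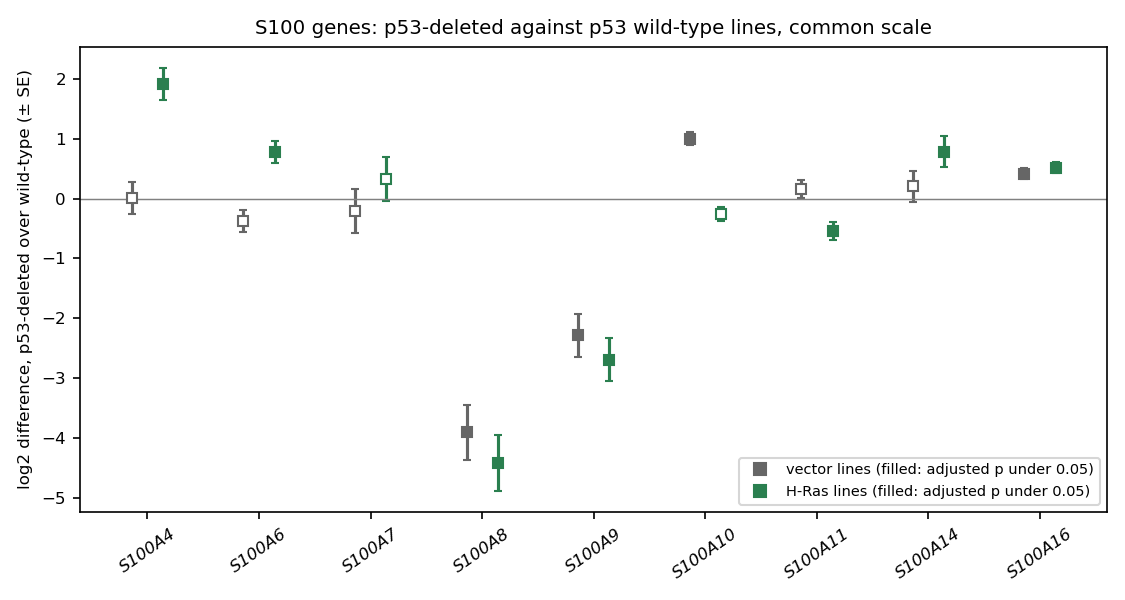
Log2 difference of p53-deleted over p53 wild-type lines for 9 S100 members, with bars for SE, between the vector lines (grey) and between the H-Ras lines (green), on reads scaled over all 12 libraries. Filled squares have a limma adjusted p under 0.05. S100A8 and S100A9 lie between -4.42 and -2.28 in both comparisons, and S100A4 lies at 0.01 between the vector lines and 1.91 between the H-Ras lines.

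Within a group the members varied together in some libraries. Library A was the highest of the p53 wild-type vector libraries for 7 of 10 members, all but S100A2, S100A10 and S100A16. Library C was the lowest of the p53 wild-type H-Ras libraries for 8 of the 9 members read there, all but S100A2. Without both libraries, 9 of the 9 members then tested were past the threshold in the p53 wild-type lines, beside 57.9% of all genes tested (6817 of 11774), with S100A6 at 0.81, S100A9 at 1.24, S100A11 at 0.53 and S100A16 at 0.35 on the log2 scale added to S100A2, S100A4, S100A8, S100A10 and S100A14, while S100A7 fell under the filter. Both libraries were chosen with these data in view and are the high and the low one for most members, so that count is a description. The members other than S100A2 took 0.452% to 0.621% of all reads in the p53 wild-type vector libraries and 0.404% to 0.578% with H-Ras. They took 0.4995% to 0.585% in the p53-deleted vector libraries and 0.732% to 0.844% with H-Ras, and S100A6 alone was 0.518% of the mean total there.

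Of 11 other S100 genes, 3 had enough reads to be tested. S100A3 was at 80.6, 87.4 and 74.9 normalized counts in the p53 wild-type vector libraries and 123, 196 and 128 with H-Ras, and rose by 0.84 ± 0.21 on the log2 scale (limma adjusted p = 0.024) and by 0.96 ± 0.11 in the p53-deleted lines (limma adjusted p = 2.9e-05). S100A13, known for its part in release of proteins that lack a signal peptide, rose by 0.57 ± 0.16 and 1.22 ± 0.08 (limma adjusted p = 0.034 and 4.0e-07), with group means of 648 and 974 and of 1253 and 2913. S100P, on chromosome 4, fell from 466, 417 and 472 to 74.5, 59.9 and 53.6 in the p53-deleted lines (-2.84 ± 0.14, limma adjusted p = 3.3e-08). In the p53 wild-type lines S100P was at 113, 90.6 and 78.3 in the vector libraries and 192, 172 and 13.1 with H-Ras, where library C was again the low one, and it was not called (-0.27 ± 0.93, limma adjusted p = 0.86). S100A1, S100A5, S100A7A and S100A12 stayed under 10 normalized counts in every group mean, and S100A7L2, S100B, S100G and S100Z had no read.

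In RefSeq (GRCh38.p14), 16 S100 coding genes follow each other on chromosome 1, in the order S100A10, S100A11, S100A9, S100A12, S100A8, S100A7A, S100A7, S100A6, S100A5, S100A4, S100A3, S100A2, S100A16, S100A14, S100A13 and S100A1. S100A2, which fell, lies between S100A3, which rose, and S100A16, and S100A14, which fell, lies between S100A16 and S100A13, which rose. S100A8 overlaps S100A7A, S100A5 overlaps S100A4 and S100A13 overlaps S100A1 in this annotation, and the sources used here do not give the strand setting of the counting. The lower gene of each overlapping pair had every group mean under 10 normalized counts. Of 12 neighbours in the epidermal differentiation complex, 2 were tested in both backgrounds and fell in both. Of all genes tested, 12.7% and 28.4% were called lower. Both neighbours were tested because of their high vector libraries, so a fall was set in advance and the count adds no support. IVL, the cornified envelope protein involucrin, fell from a group mean of 31.0 to 4.64 in the p53 wild-type lines and from 192 to 0.68 in the p53-deleted lines, and SPRR1B, another envelope gene, had 213 and 276 reads over the vector libraries and 0 with H-Ras.

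**Figure D5:**
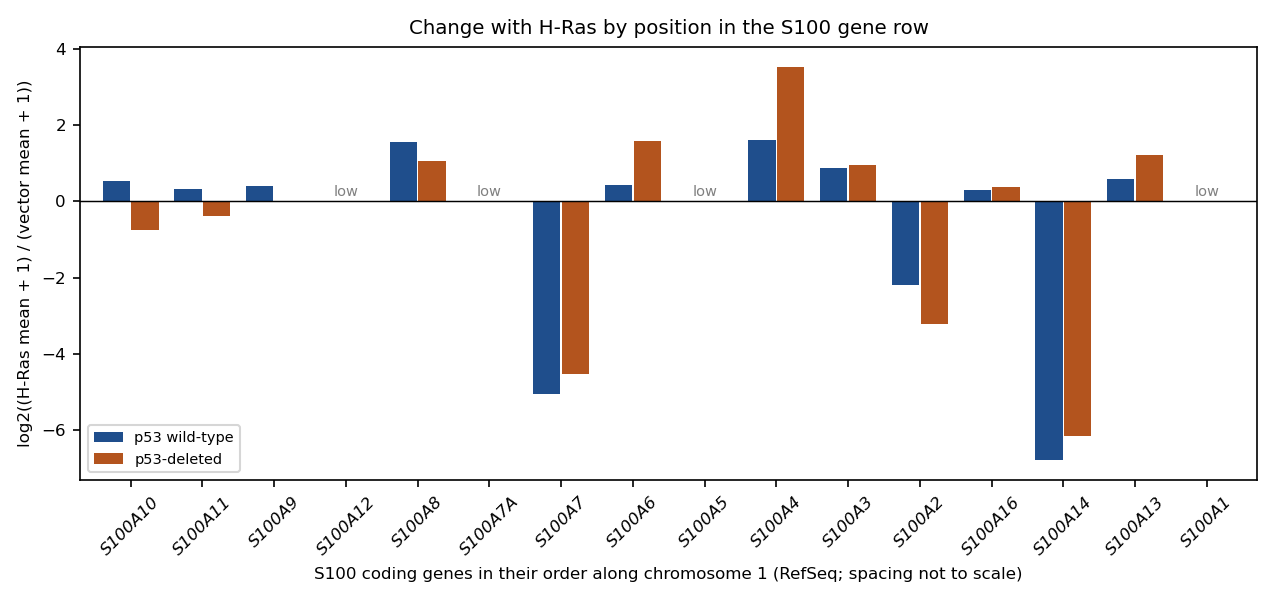
Log2 ratio of the H-Ras mean plus 1 to the vector mean plus 1 for 16 S100 genes in their order along chromosome 1, in the p53 wild-type lines (blue) and the p53-deleted lines (orange). Genes under 10 normalized counts in every group mean are marked low. Bars that reach below -2 (S100A7, S100A2, S100A14) stand beside bars above 0 (S100A6, S100A3, S100A16 and S100A13).

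The stretches before the start sites of 6 members are shown because these genes had the largest changes with H-Ras or between the p53 backgrounds. They are RefSeq sequences of build GRCh38.p14, 250 bases up to the base before the listed start, 5′ to 3′ on the strand of the gene. The 10 members have 14 listed starts, some of which overlap. For S100A2 the first listed start and for S100A8 the second is shown. Capitals mark motifs searched on both strands: the TATA box TATAAA, the AP-1 motif TGANTCA, the grainyhead motif AACNNGTT, the C/EBP motif TTGCNNAA and the E-box CACCTG, read CAGGTG on the other strand. The motifs were chosen with results of these data known.
S100A14, chr1:153616326-153616575, minus strand: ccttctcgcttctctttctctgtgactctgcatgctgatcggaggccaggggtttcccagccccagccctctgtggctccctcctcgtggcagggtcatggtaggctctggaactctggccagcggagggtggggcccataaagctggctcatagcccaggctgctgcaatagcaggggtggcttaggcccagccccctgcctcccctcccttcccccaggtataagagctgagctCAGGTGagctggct
S100A2, chr1:153565845-153566094, minus strand: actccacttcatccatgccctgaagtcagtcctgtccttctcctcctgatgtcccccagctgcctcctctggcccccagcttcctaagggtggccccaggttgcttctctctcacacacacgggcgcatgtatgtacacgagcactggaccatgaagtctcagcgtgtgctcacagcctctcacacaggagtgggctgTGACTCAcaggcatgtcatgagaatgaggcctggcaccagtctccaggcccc
S100A7, chr1:153460652-153460901, minus strand: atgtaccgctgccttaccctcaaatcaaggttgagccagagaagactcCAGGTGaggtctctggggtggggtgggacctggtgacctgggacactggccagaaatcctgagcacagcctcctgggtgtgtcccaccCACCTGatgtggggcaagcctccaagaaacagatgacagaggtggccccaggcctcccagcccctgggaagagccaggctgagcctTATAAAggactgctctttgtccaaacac
S100A4, chr1:153545807-153546056, minus strand: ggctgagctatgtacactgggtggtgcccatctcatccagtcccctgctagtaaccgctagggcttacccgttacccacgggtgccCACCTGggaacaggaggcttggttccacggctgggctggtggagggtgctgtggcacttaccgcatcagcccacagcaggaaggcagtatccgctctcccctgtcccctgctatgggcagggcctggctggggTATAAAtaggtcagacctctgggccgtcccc
S100A8, chr1:153391074-153391323, minus strand: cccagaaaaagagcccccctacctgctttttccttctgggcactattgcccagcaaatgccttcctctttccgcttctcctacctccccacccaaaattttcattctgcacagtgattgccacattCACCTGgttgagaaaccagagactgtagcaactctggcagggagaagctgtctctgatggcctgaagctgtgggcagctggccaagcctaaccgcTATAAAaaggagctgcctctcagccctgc
S100A9, chr1:153357604-153357853, plus strand: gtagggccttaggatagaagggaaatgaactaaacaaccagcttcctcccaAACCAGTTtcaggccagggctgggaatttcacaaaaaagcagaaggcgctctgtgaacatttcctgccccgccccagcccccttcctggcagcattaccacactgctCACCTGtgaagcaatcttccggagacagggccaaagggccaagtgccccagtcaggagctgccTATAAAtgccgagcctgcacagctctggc
The E-box lay in 9 of the 14 windows of members, beside 17.5% of 35116 RefSeq windows of the same length. The 3 windows of S100A8 overlap and hold the same E-box, so 1 site is counted 3 times. The E-box was found both in genes that fell (S100A14, S100A7) and in a gene that rose (S100A4). In S100A14 it starts 14 bases before the start. The TATA box lay in 5 of 14 windows, of S100A4, S100A7, S100A8 and S100A9, beside 10.7% of all windows, and began 28 to 31 bases before the start except at the third start of S100A8. That start shares its TATA box with the second, so 1 site is counted at both. The AP-1 motif lay in 1 window, that of S100A2, at 52 bases before the start, beside 6.57% of all windows. The grainyhead motif lay in 1 window, that of S100A9, beside 3.00%, and the C/EBP motif in 1, that of S100A11, beside 9.05%. A match is a description of the letters and not a binding site.

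Of the annexins, which S100A10, S100A11 and other members bind, 2 of 11 tested rose and 3 fell in the p53 wild-type lines, and 3 of 10 rose and 4 fell in the p53-deleted lines, beside 25.6% and 56.1% of genes called. The median log2 fold change of the list was 0.07 and -0.18, beside -0.02 and 0.01 over all genes. ANXA1, the partner of S100A11, held 7015, 5468 and 5369 normalized counts in the p53 wild-type vector libraries and 6974, 7862 and 6356 with H-Ras, which overlapped (0.25 ± 0.14, limma adjusted p = 0.22). In the p53-deleted lines it fell from 6480, 7055 and 6241 to 3132, 3827 and 3687 with no overlap (-0.90 ± 0.10, limma adjusted p = 1.3e-05). ANXA2, the partner of S100A10, was not called in the p53 wild-type lines (0.18 ± 0.11, limma adjusted p = 0.25), and its deposited means were 41083 and 29019 in the p53-deleted lines, where its vector libraries could not be solved. ANXA6 rose from group means of 92.2 to 2097 and from 315 to 1410, and ANXA3 fell from 1758 to 948 and from 2077 to 239. ANXA8 and its near copy ANXA8L1, which may share reads, fell in both backgrounds. In the p53-deleted lines both were tested through their vector libraries alone, where only a fall could be found.

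Of 16 other partners and receptors, 3 of 11 tested rose and 3 fell in the p53 wild-type lines, and 2 of 12 rose and 4 fell in the p53-deleted lines, beside the same 25.6% and 56.1% of genes called. CD36 is among those counted as risen in the p53-deleted lines. It was tested through its H-Ras libraries alone, so only a rise could be found and its call adds no support. TLR4, a receptor of extracellular S100A8 and S100A9, rose from 89.4, 78.0 and 64.8 normalized counts to 307, 299 and 242 in the p53 wild-type lines (1.86 ± 0.17, limma adjusted p = 3.2e-04) and from a mean of 68.5 to 374 in the p53-deleted lines (2.45 ± 0.15, limma adjusted p = 1.4e-07). AGER, which encodes RAGE, the receptor known for many S100 proteins, stayed under 8 normalized counts in every library and was not tested. DLC1, which binds S100A10, rose in the p53 wild-type lines (0.98 ± 0.18, limma adjusted p = 0.0076) and was at -0.10 ± 0.13 in the p53-deleted lines (0.56). PLAT, the tissue plasminogen activator, fell in the former (-0.82 ± 0.17, limma adjusted p = 0.012) and was at 0.21 ± 0.15 in the latter (0.26). CAPN1, a calcium-dependent protease, fell in both (-0.80 ± 0.12 and -0.55 ± 0.11, limma adjusted p = 0.0023 and 0.0011). Of 7 fused-type S100 genes, which encode large proteins of the cornified layer, TCHH was the only one tested, in the p53-deleted lines. It fell by 1.20 on the log2 scale, but it was tested through its vector libraries alone, so only a fall could be found.

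Genes with the most similar pattern over the 4 group means were ranked among 9720 genes by the root mean square difference of centred log2 means. S100A2 was closest to KRT6A (0.14), a stress keratin, then KITLG and SFN. S100A4 was closest to BDNF (0.15) and DKK3, S100A6 to TGFB1 (0.058), S100A8 to TNIP3 (0.076) and S100A9 to BAG2 (0.23), VNN1 and TNFAIP3. S100A10 was closest to FABP5 (0.0083), S100A11 to GNB4 (0.018), S100A16 to TOR1AIP2 (0.019) and S100A14 to MYO5B (0.37), WNT7A and FAT2. Among the members themselves, S100A10 and S100A11 were closest to each other (0.31), and so were S100A8 and S100A9 (0.97). These ranks rest on 4 means and carry no test.

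In the authors' deposited table, adjusted p was under 0.05 for 4 of the 10 members in the p53 wild-type lines and for 7 in the p53-deleted lines, beside 9.32% of 23234 and 26.1% of 23573 genes with a p-value there. S100A2, S100A4, S100A7 and S100A14 were under it in the authors' deposited table in both backgrounds, S100A2 with adjusted p = 6.5e-51 in the p53-deleted lines. S100A8 was not, with 0.10 and 0.23 in the authors' deposited table, nor were S100A10 in the p53 wild-type lines (0.15) or S100A11 in the p53-deleted lines (0.054).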

How the data were processed

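The authors deposited 1 table per p53 background with a normalized signal per gene, the mean of the vector line and of the H-Ras line, plus a fold change, which is the ratio of both means, and p-values, raw and adjusted, per the file headers. Reads went through FastQC and Trimmomatic, TopHat and SAMtools, and HTSeq, with build GRCh37, per the submitters' processing notes, and RNA was prepared with TRIzol, oligo-dT beads and a TruSeq kit, per the labels' protocols. The sources used here do not give the annotation, strand setting, versions or normalization tool. In the p53 wild-type table the column headers and the table's name hold different numbers, and the columns were taken as the groups named in the samples' descriptions.

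That the deposited signal is a mean of reads over size factors was read from the values. Means printed to 15 digits were solved for the whole reads of 3 libraries, within 0.2 to 2.5 times the mean above 1000, and within 0.5 to 1.6 times above 20000 or where several solutions remained. A unique solution was found for 99.9% to 100.0% of genes above 0 per group. Of 2800 means up to 10000 that were shifted slightly, 0 were solved, and 2000 of 2000 simulated means came out right. Above 10000, 34 of 180 shifted means were solved by chance, and of 240 simulated means 218 came out right and 0 wrong. The simulated libraries were drawn with a narrow spread that nearly always lies within the bounds used. The count of 0 wrong therefore does not cover libraries that spread more widely. The solutions of S100A2 and S100A6, and every SD and n = 3, rest on these solved reads.

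Fits used limma 3.58.1 (R 4.3.3) on log2(value + 1), which understates changes of low genes, and allowed the variance to follow the mean. A gene entered where 3 or more libraries reached 10 normalized counts. H-Ras was compared with vector in the 6 libraries of a table, the difference between responses was an interaction over 12 libraries, and the p53 backgrounds were compared on reads scaled by medians of ratios over the 12. The fits were tested on simulated data. Members, lists, motifs and tests were chosen with earlier results of these data known. Named genes are the members, HRAS, other S100 genes with reads, the 4 genes with the largest change per list among called genes with a mean of at least 100, and ANXA1, ANXA2 and AGER; likeness used genes with a mean of at least 100 in any group. CDH1, TP63, KRT8, ITGB4, DCN, CD14, CACYBP, BSG, CD36, ANXA5, IVL and SPRR1B are given from the marker, partner, annexin and neighbour lists. Python 3.11.15, NumPy 2.4.6, SciPy 1.17.1 and Matplotlib 3.10.9 were used. No protein sequences are shown.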

Additional observations from a re-analysis of the deposited data

Results flagged for a closer look

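For 4 members the response to H-Ras differed between the p53 backgrounds by the interaction test, given as p53-deleted minus p53 wild-type on the log2 scale with SE. The difference was 1.90 ± 0.37 for S100A4 (limma adjusted p = 0.0047), 1.15 ± 0.26 for S100A6 (0.011), -1.26 ± 0.15 for S100A10 (2.0e-04) and -0.70 ± 0.21 for S100A11 (0.035). These are 4 of 9 members tested, beside 17.2% of 13268 genes. The S100A11 call was kept in 8 of 19 alternatives, and those of S100A4, S100A6 and S100A10 were kept in all 19. Which of p53 status and the pair of lines goes with the difference cannot be told apart.

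Among related genes the same test called S100A13 (0.64 ± 0.18, limma adjusted p = 0.028) and the annexins ANXA1 (-1.15 ± 0.18), ANXA3 (-2.22 ± 0.19), ANXA6 (-2.33 ± 0.23), ANXA8 (-2.44 ± 0.51) and ANXA8L1 (-2.55 ± 0.42). ANXA5 was also called, near the threshold (-0.58 ± 0.18, limma adjusted p = 0.047). Of 10 annexins tested, 6 were called with a lower response in the p53-deleted lines, beside 7.94% of all genes. The near copies ANXA8 and ANXA8L1, which may share reads, are both counted among the 6. Their p53-deleted H-Ras means were only 1.67 and 4.25 normalized counts. Of 12 partners and receptors tested, 3 were called with a higher and 1 with a lower response, beside 9.28% and 7.94% of all genes. BSG differed by 0.89 ± 0.12, CD36 by 2.58 ± 0.73, PLAT by 1.02 ± 0.25 and DLC1 by -1.08 ± 0.24. CD36 was tested through the p53-deleted H-Ras libraries alone, so only a higher response could be found.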

How the results depend on the processing

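Over the alternatives run (pseudocounts of 0.5 and 10, no filter, scaling to total reads or to the upper quartile, voom, all 12 libraries in the fit, and each library left out), S100A2, S100A4, S100A7 and S100A14 kept their direction and call with H-Ras wherever they were tested, S100A2 in the p53 wild-type lines. S100A7 was not tested without a vector library, since 2 libraries then remain above the filter. Wherever the filter was used, S100A7 was tested through its vector libraries alone. Only a fall could be found there, so its kept calls add no support. The number of members called ranged from 3 to 9 in the p53 wild-type lines and from 5 to 8 in the p53-deleted lines when a library was left out, with 3 without vector library B or C and 9 without H-Ras library C in the former, and 5 without vector library A in the latter. The count over all genes moved too, from 3198 of 12473 to 1706 of 12170, 1928 of 12185 and 4126 of 12249 in those fits of the former and from 7172 of 12785 to 6082 of 12534 in that of the latter. Values near 0 changed sign. S100A9 in the p53-deleted lines was at 0.020 with total reads and 0.076 with the upper quartile, and ranged from -0.13 to 0.11 when a library was left out. Between the vector lines S100A4 was at -0.0016 with voom and ranged from -0.18 to 0.30 when a library was left out, and S100A7 was at 0.040 without p53 wild-type vector A and H-Ras C and ranged from -0.38 to 0.040 when a library was left out. The cause of these sign changes was not tested. Between the H-Ras lines S100A7 did not turn negative. It ranged from 0.00 to 0.49 when a library was left out and was at 0.52 with a pseudocount of 0.5. That difference rests on 1 read, in p53-deleted H-Ras library C.

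No paired analysis was possible because the deposited columns carry no replicate numbers. Depth limits S100A7, S100A8 in the p53-deleted lines and AGER, and means above 10000, S100A2 and S100A6 among them, are solved less surely. No genome of the files' build was used here.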
